A study of Mus musculus with 24 samples.

Results

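The mitochondrial ribosomal protein genes Mrpl and Mrps were described in C2C12, an established line of mouse myoblasts whose cells fuse to form myotubes once serum is lowered. They were all rows of the deposited count table whose symbol begins with Mrpl or Mrps and a number, pseudogene symbols left out, which gave 78 of 14693 genes. Of these, 51 encode proteins of the large ribosomal subunit and 26 proteins of the small subunit. Mrps18a and Mrps30 are counted with the large subunit, where their proteins sit despite the names. The remaining member, Mrps36, was named as a ribosomal protein and is now known as a subunit of the α-ketoglutarate dehydrogenase complex.

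Wild-type cells were grown in 10% fetal bovine serum, switched to 2% horse serum, and given vehicle, linoleic acid (LA, a polyunsaturated fatty acid of the omega-6 family) at 100 µM carried on albumin, or recombinant mouse ANGPTL4 at 10 ng/mL. ANGPTL4 is a secreted inhibitor of lipoprotein lipase. Each treatment was sampled at day 2 and day 6, which made 6 groups of 4 libraries. All libraries came from 1 cell line, and nothing in the labels says that the 4 libraries of a group came from separate cultures, so p-values measure the spread between these libraries, which may be technical.

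The mitochondrial ribosome translates the few messages of the mitochondrial genome, which encode core subunits of the respiratory chain and ATP synthase. Its proteins are all encoded in the nucleus, made in the cytosol and imported. Many have bacterial counterparts, and others are found only in mitochondria. Myoblasts that become myotubes are known to build up their mitochondria, and the nuclear factors GABPA (an ETS-family factor), NRF1 and YY1 are known to act on many nuclear genes for mitochondria.

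The libraries held 6100684 to 25049912 counts, and the 78 members together took 0.176% to 0.230% of a library. All 8 muscle markers looked for, among them Des, Myog and Ckm, were in the table. Their summed level was 6185 to 6987 CPM (counts put on the same library size) in vehicle day 2 libraries, 9007 to 9859 CPM in vehicle day 6 and 6595 to 7479 CPM in LA day 6 libraries. None of 5 adipocyte markers was in the table. The 1 of 4 endothelial markers and 3 of 5 macrophage markers in it summed to at most 1.07 CPM and 4.19 CPM in a library. The 4 of 5 fibroblast markers in the table (Thy1 was not) summed to 7977 to 9019 CPM in vehicle day 6 and 10051 to 11848 CPM in LA day 6 libraries. In whole-culture RNA, fewer cells of a type and less RNA per cell cannot be told apart.

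Promoter sequence shows what many members share beside their names. RefSeq promoters (build GRCm38.p6, 250 bases before to 50 bases after a gene's start) matched 69 of the 78 members. Letters were searched on both strands: CCGGAAG for ETS factors, AAGATGGCG for YY1, CACGTG for the E-box and, for NRF1, the palindrome in capitals in the Mrpl9 window below. These 4 letter strings do not contain each other. The ETS letters stood in the promoters of 26 members (37.7%), against 9.93% of 27025 genes with a promoter and 18.4% of the 11513 of those genes in the count table. The YY1 letters stood in 8 members (11.6%, against 1.64% and 3.19%), the NRF1 letters in 3 members (4.35%, against 1.07% and 2.15%) and the E-box in 5 members (7.25%, against 8.09% and 11.4%). A match is a description of letters and not a shown binding site. The 5 windows below are the 100 bases before the start, and the short stretch of Mrps24 lies at its start. They show each kind of match and include 3 genes whose values are followed below, Mrpl43, Mrpl20 and Mrps24. Capitals mark the matches. Mrpl43 (chr19:45006443-45006542, minus strand) and Mrpl53 (chr6:83109008-83109107, plus strand) hold ETS letters, in Mrpl53 once in each orientation. Mrpl9 (chr3:94443236-94443335, plus strand) holds NRF1 letters. Mrpl36 (chr13:73330909-73331008, plus strand) holds an E-box and inverted YY1 letters. Mrpl20 (chr4:155802778-155802877, plus strand) holds an E-box, and Mrps24 (chr11:5707652-5707673, minus strand) holds YY1 letters.
Mrpl43: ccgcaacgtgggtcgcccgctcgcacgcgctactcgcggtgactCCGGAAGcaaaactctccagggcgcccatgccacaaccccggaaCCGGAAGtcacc
Mrpl53: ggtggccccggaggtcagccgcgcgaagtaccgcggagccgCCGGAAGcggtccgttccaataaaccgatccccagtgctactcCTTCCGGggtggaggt
Mrpl9: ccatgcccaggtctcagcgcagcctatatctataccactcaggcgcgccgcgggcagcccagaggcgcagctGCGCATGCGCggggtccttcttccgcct
Mrpl36: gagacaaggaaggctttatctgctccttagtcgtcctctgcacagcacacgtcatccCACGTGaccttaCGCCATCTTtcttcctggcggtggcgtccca
Mrpl20: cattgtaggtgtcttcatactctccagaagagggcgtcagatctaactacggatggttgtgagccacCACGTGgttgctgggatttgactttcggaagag
Mrps24: gccggcccAAGATGGCGtggtc

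All 78 members passed the filter on low counts. A member's mean over the 24 libraries ran from 2.68 CPM for Mrpl43 to 53.4 CPM for Mrpl13, with a median of 23.9 CPM. A CPM here is a count at transcript ends and is not divided by length. It is scaled to the library's total over the genes tested, multiplied by the library's TMM scaling factor. Mrpl12, a stalk protein of the large subunit known to bind the mitochondrial RNA polymerase, averaged 50.5 CPM, and Mrpl3 averaged 48.4 CPM. At the low end Mrpl23 averaged 5.89 CPM and Mrpl27 averaged 6.21 CPM. Mrpl45, which tethers the ribosome to the inner membrane, lay between 37.7 and 45.4 CPM in all 24 libraries and passed the test in none of 11 comparisons. It is 1 of the members named for a special role.

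**Figure D1:**
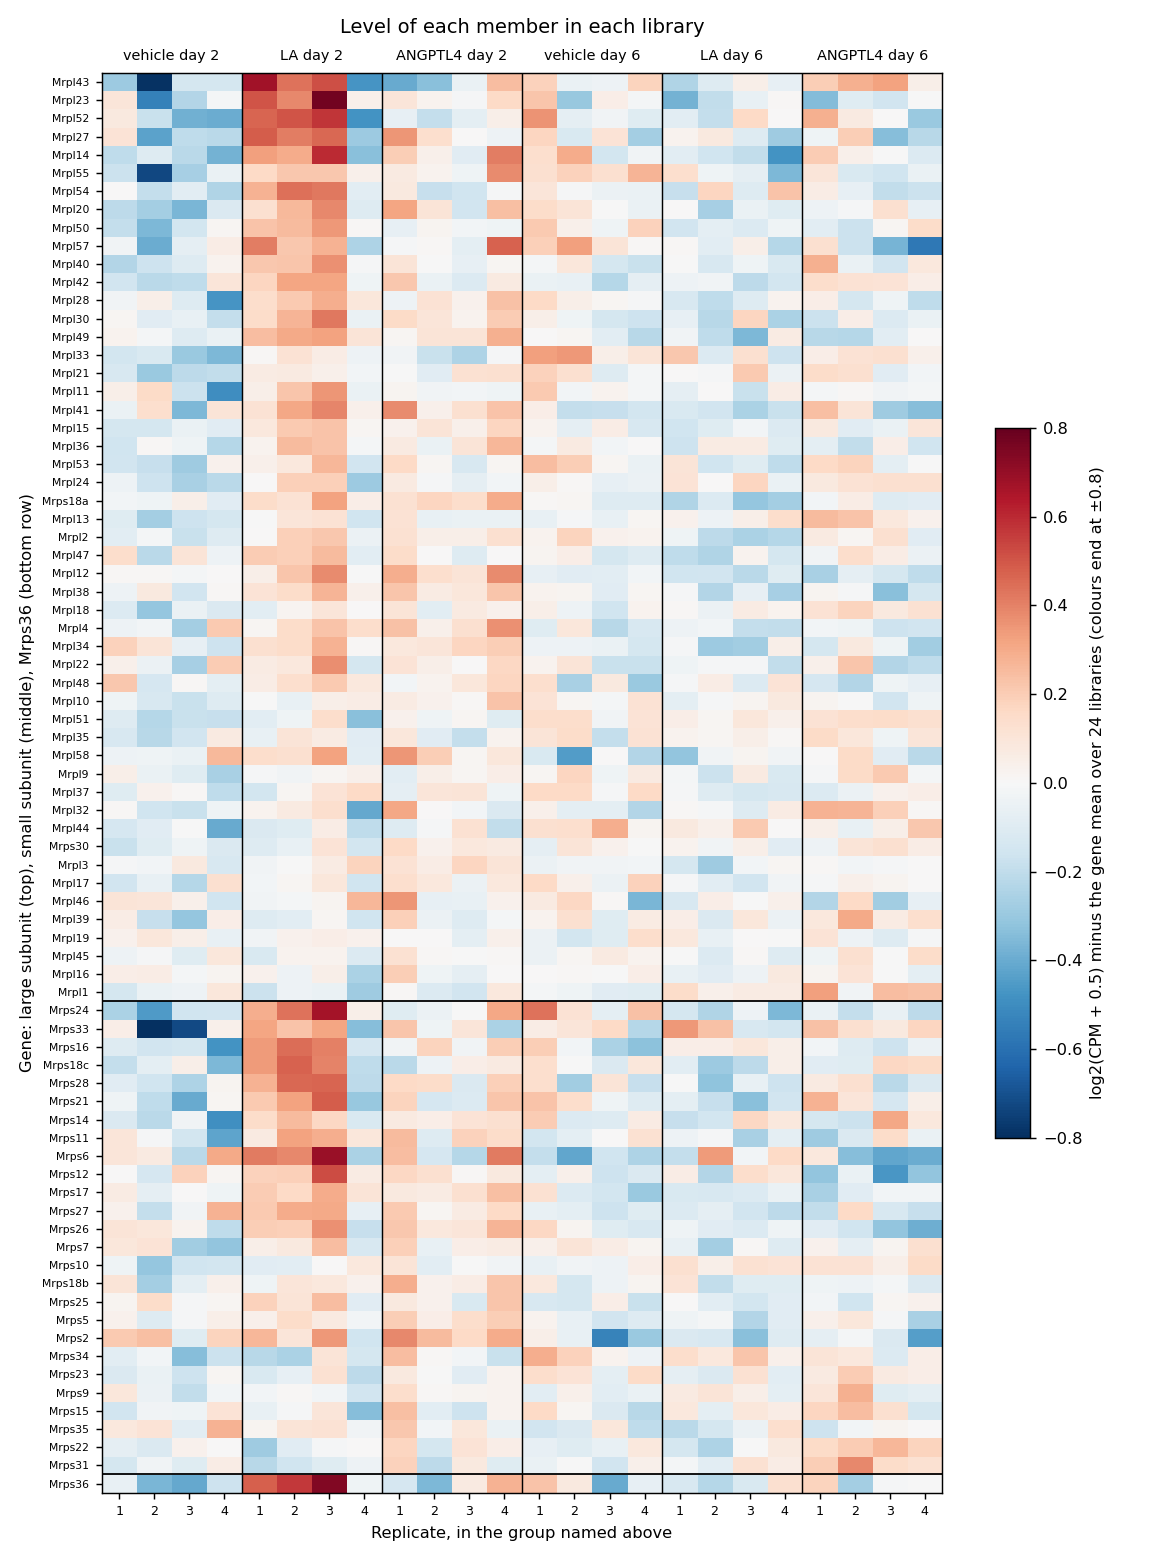
Level of each member (rows, large subunit above small subunit, Mrps36 last) in each library (columns, 4 per group), as log2(CPM + 0.5) minus the gene's mean over the 24 libraries; the colours end at ±0.8. Red fills most rows in LA day 2 libraries 1 to 3 and not in library 4, and day 6 columns are paler. This is not particular to LA. The members' mean centred log2 CPM was 0.12, -0.0006, 0.005 and 0.12 in ANGPTL4 day 2 libraries 1 to 4, beside 0.11 in LA day 2 library 1.

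In vehicle cells, day 6 against day 2 asks how the members differed along ordinary differentiation. Of the 78 members, 12 rose and 1 fell, at an adjusted p under 0.05 by edgeR's quasi-likelihood test over all genes tested. Over all 12994 genes tested, 45.6% were called (25.2% higher and 20.5% lower), so the share of members called was below the background. The members' median log2 fold change was 0.11, beside 0.02 over all genes. With other scaling the split of 12 higher and 1 lower was 10 and 2 (DESeq2 size factors) or 9 and 3 (library totals alone). With the trends of transcript length and GC content removed from each library it was 7 and 6, with 7 of the 13 calls shared. The median was then 0.02, so the upward lean was not seen under that setting. Of all genes 46.1% were called there, 22.2% higher and 23.8% lower. Of the large subunit, 10 of 51 rose and none fell; of the small subunit, 2 of 26 rose and 1 fell.

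Mrpl33, a short protein of the large subunit with a bacterial counterpart, read 31.8, 32.5, 28.7 and 27.5 CPM in vehicle day 2 libraries and 44.5, 45.1, 36.5 and 38 CPM in vehicle day 6 libraries. Every day 6 library stood above every day 2 library, and the log2 fold change was 0.44 (SE 0.08, adjusted p = 5.1e-05 by edgeR). Mrps24, a small-subunit protein, read 12.6, 10.9, 13.5 and 13.6 CPM at day 2 and 20.6, 16.4, 14.3 and 17.95 CPM at day 6. Its groups did not overlap either, and its log2 fold change was 0.46 (SE 0.12, adjusted p = 0.0033 by edgeR). Exons of Mrps24 overlap those of Urgcp on the same strand in an annotation of build GRCm38, and the counting rule is not given in the sources used here, so its reads may include reads of Urgcp. Mrpl51 (log2 fold change 0.27) and Mrpl55 (0.51) of the large subunit also rose without overlap. Mrpl44, which carries an RNase III-like fold, rose by 0.31. Of the 13 called members, 8 had groups that did not overlap. Calls and overlap rest on the same values, and the share without overlap over all genes was not computed. Such counts, here and below, are a description and add no support to the calls. Mrps2, a small-subunit protein with a bacterial counterpart, was the member that fell, from 16.2 ± 1.71 CPM (SD, n = 4) to 12.7 ± 2.32 CPM (SD, n = 4). That call rests on vehicle day 6 replicate 3, the lowest of these libraries at 9.95 CPM: without it the log2 fold change was -0.25 (adjusted p = 0.091 by edgeR). The number of members called was 7 without vehicle day 6 replicate 1, 8 without replicate 2 and 20 without replicate 3. Leaving out or thinning libraries can change the calls of all genes as well. For such counts, here and below, the share over all genes is not given.

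The other genes of mitochondrial translation differed in direction among themselves in this comparison. Of 27 genes for assembly of the ribosome and modification of its RNA, 9 rose and 2 fell. Rbfa, which acts in small-subunit maturation, rose by 0.49, and Mrm1, a methyltransferase of the large ribosomal RNA, rose by 0.48. Mettl17 fell by 0.42. Of 15 translation factors and mRNA-binding partners, 1 rose (Taco1, 0.26) and 3 fell, among them Lrpprc, which stabilises mitochondrial mRNAs (-0.42, adjusted p = 1.2e-07 by edgeR). Of 20 aminoacyl-tRNA enzymes, 3 rose and 2 fell, with Nars2 at 0.58. None of 9 genes for mitochondrial DNA upkeep and transcription passed the test. Among 10 regulators of nuclear genes for mitochondria, Esrra rose by 0.42 while Nrf1 (-0.31), Ppargc1b (-0.37) and Gabpb2 (-0.21) fell.

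**Figure D2:**
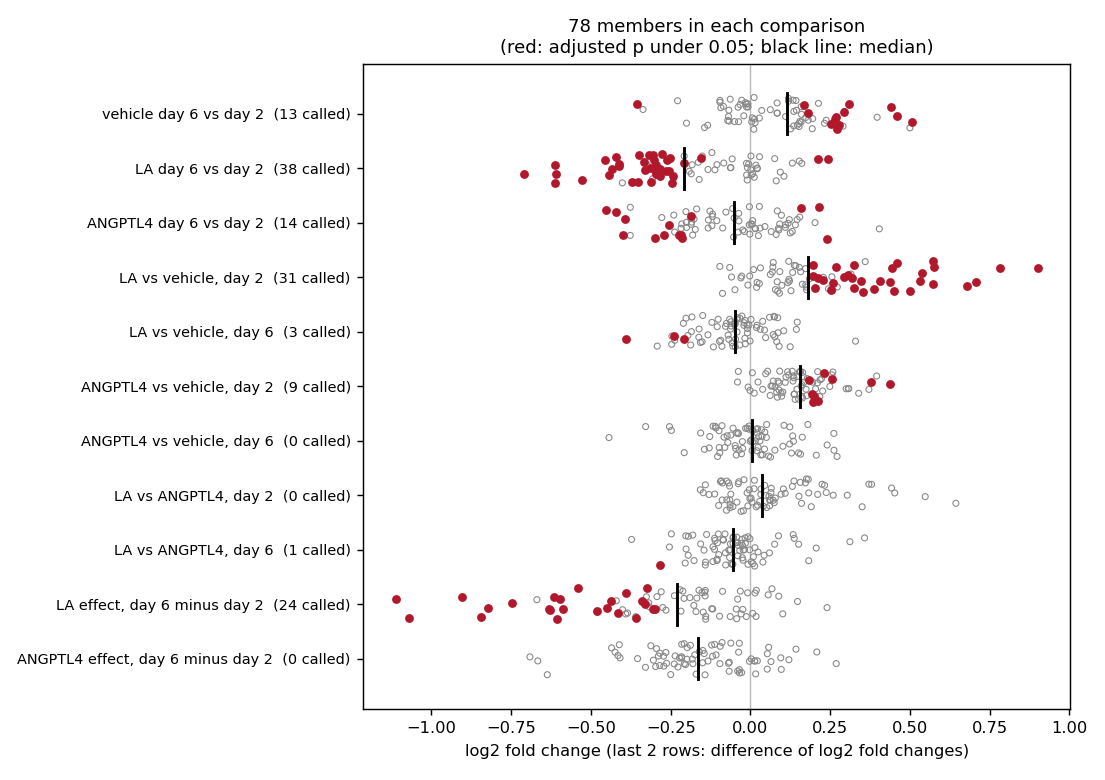
Log2 fold change of each of the 78 members (points) in 11 comparisons; red points passed an adjusted p under 0.05, and the black bar is the median. Called members lie above 0 in both day 2 comparisons with vehicle, and mostly below 0 in LA day 6 against day 2.

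At day 2, LA against vehicle asks how the fatty acid changed early differentiation. Of the 78 members, 31 rose and none fell. The background was 15.1% of 12994 genes called, 8.27% higher and 6.82% lower. The log2 fold change was above 0 for 69 members, and its median was 0.18, beside 0.01 over all genes. The rise took in both subunits: 21 of 51 large-subunit members, 9 of 26 small-subunit members, and Mrps36. By origin, 21 of 47 members with a bacterial counterpart and 8 of 29 found only in mitochondria rose.

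Mrps24 was at 18.7, 20.7, 24.4 and 15.6 CPM in LA day 2 libraries, all above the vehicle day 2 values of 10.9 to 13.6 CPM. Its log2 fold change was 0.68 (SE 0.12, adjusted p = 7.5e-04 by edgeR). Mrps36 read 13.1, 13.9, 15.8 and 9.0 CPM with LA and 8.84, 7.07, 6.85 and 8.17 CPM with vehicle. These groups came close and did not overlap (log2 fold change 0.78, SE 0.15, adjusted p = 0.0016 by edgeR). Mrps16, a small-subunit protein with a bacterial counterpart, read 19.8, 21.4, 20.7 and 14.1 CPM with LA and 14.4, 13.9, 14 and 11 CPM with vehicle. LA library 4 lay within the vehicle range (log2 fold change 0.54, SE 0.11, adjusted p = 0.0021 by edgeR). Mrpl50 of the large subunit read 23.1, 23.5, 25.1 and 19.7 CPM with LA and 17.2, 15.2, 17.7 and 19.9 CPM with vehicle, with a log2 fold change of 0.41. Here too the LA range met the vehicle range through LA library 4. These 4 were the called members that stayed called under every alternative run.

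Mrpl43, the member with the fewest reads, had the highest log2 fold change. It read 4.45, 3.69, 3.92 and 1.74 CPM with LA and 2.03, 1.29, 2.32 and 2.31 CPM with vehicle (log2 fold change 0.90, SE 0.21, adjusted p = 0.0056 by edgeR). Its exons overlap those of Twnk, the mitochondrial DNA helicase gene, on the opposite strand, and whether strand was used in counting is not given in the sources used here. Mrpl23 read 8.38, 7.67, 10.2 and 5.93 CPM with LA and 6.19, 3.80, 4.83 and 5.69 CPM with vehicle, with a log2 fold change of 0.71. Mrpl23 and Mrps36 have pseudogenes with their names, so their values are uncertain. In both Mrpl43 and Mrpl23 LA libraries 1 to 3 lay above every vehicle library and library 4 lay within their range. Of the 31 called members, 11 had groups that did not overlap.

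**Figure D3:**
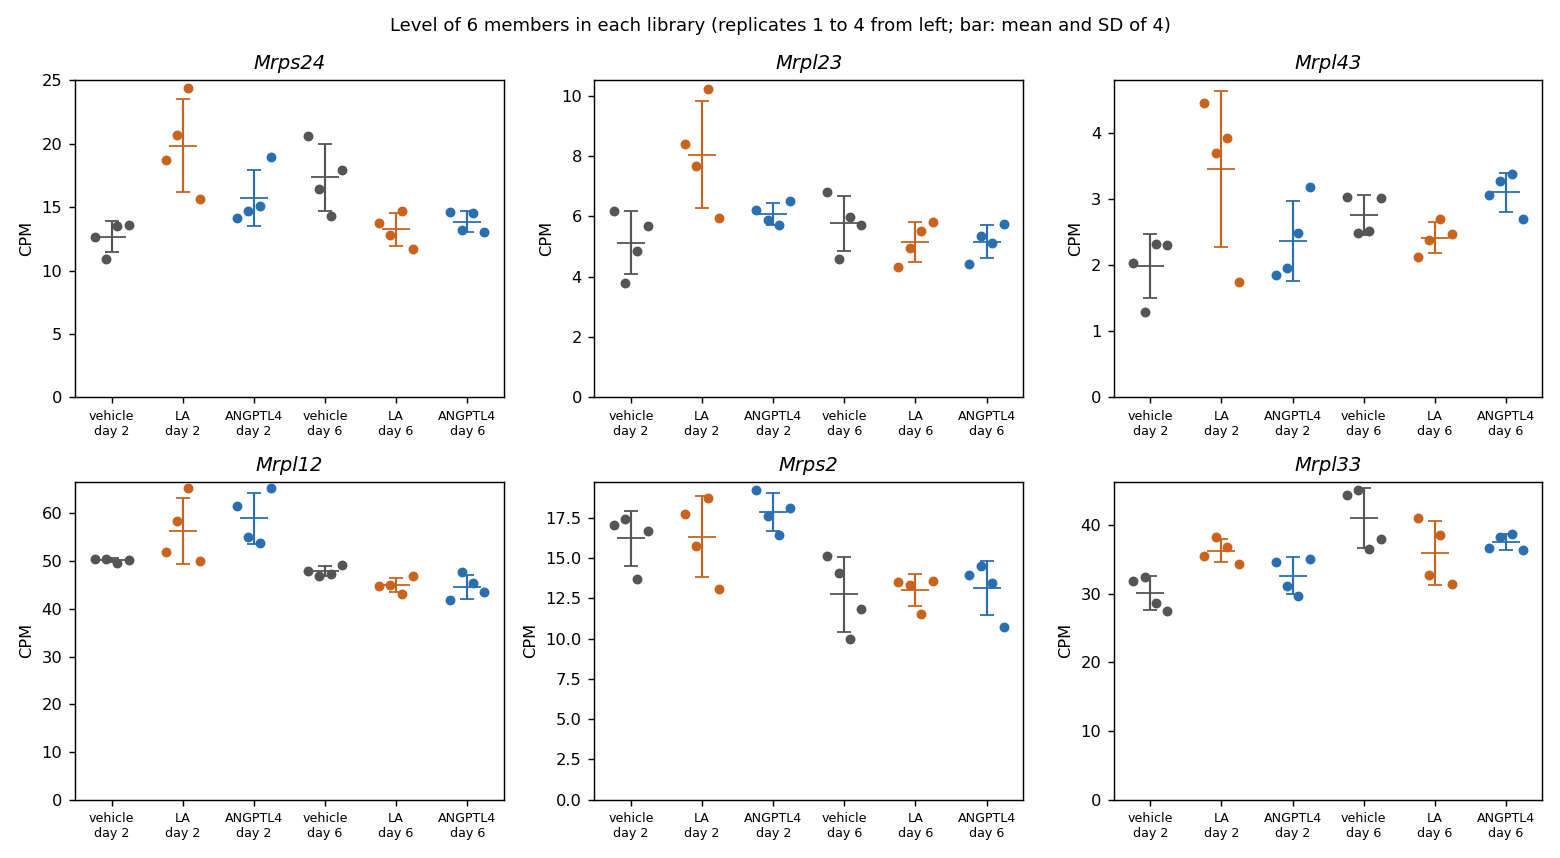
CPM of 6 members in each library (points, replicates 1 to 4 from left), with the mean and SD of 4 libraries per group. In the panels for Mrpl23 and Mrpl43 LA day 2 libraries 1 to 3 are the highest of all 24, in that for Mrps24 every LA day 2 library lies above the vehicle day 2 libraries, and Mrpl12 is lower at day 6 than at day 2 in the treated groups.

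LA day 2 library 4 was the nearest of its group to the vehicle day 2 libraries across the members. Library 1 had 44 of the 78 members above the whole vehicle day 2 range, library 2 had 48, library 3 had 61 and library 4 had 17. A mean of the members' centred log2 CPM in a library was 0.11, 0.16, 0.26 and -0.09 in LA libraries 1 to 4, and -0.14 to -0.04 in the 4 vehicle day 2 libraries. The members' share of counts was 0.202%, 0.212%, 0.230% and 0.186% in LA libraries 1 to 4. Neither this share nor the mean flagged an LA day 2 library when 1 library was tested against the other 3. Library 4 also had the fewest counts of the group, 9547787 against 17356591 to 25049912. The 4 vehicle day 2 libraries held 9850494 to 14529573 counts, so LA libraries 1 to 3 were deeper than all of them. With every library thinned to 6100684 counts, 17 members were called, 16 of them among the 31. The part of depth in the result was not tested. The number of members called was 40 without library 4, 11 without library 3, 19 without library 2 and 20 without vehicle day 2 replicate 4. Without the shares over all genes, these counts and the thinned count are not a result about the members alone. All 31 stayed called without library 4, and all 11 called without library 3 were among the 31. Without libraries 3 and 4, a setting chosen after seeing the data, 23 of the 31 were called.

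Transcript length moved with the LA difference at day 2. The 31 called members had a median annotated transcript length of 995 nt, against 1612 nt for the other 47. Of the shortest 26 members (418 to 1018 nt) 16 rose, of the middle 26 (1031 to 1849 nt) 10 rose, and of the longest 26 (1962 to 7300 nt) 5 rose. Across the 78 members Spearman's rho between log2 fold change and length was -0.50, and with mean CPM it was -0.47. These genes come from the same libraries and are not independent replicates. The libraries had length trends over all genes, fitted to log2 CPM minus each gene's mean over the 24 libraries. The fitted value at 4000 nt minus that at 1000 nt was -0.11, -0.16, -0.22 and 0.07 in LA day 2 libraries 1 to 4. It was 0.03 to 0.15 in vehicle day 2 libraries. With trends of length and GC content removed from each library, 8 members (10.3%) were called, all among the 31, and the median log2 fold change was 0.08. In that setting 5.56% of all genes were called, 3.49% higher and 2.08% lower. The part of these trends in the result was not tested.

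**Figure D4:**
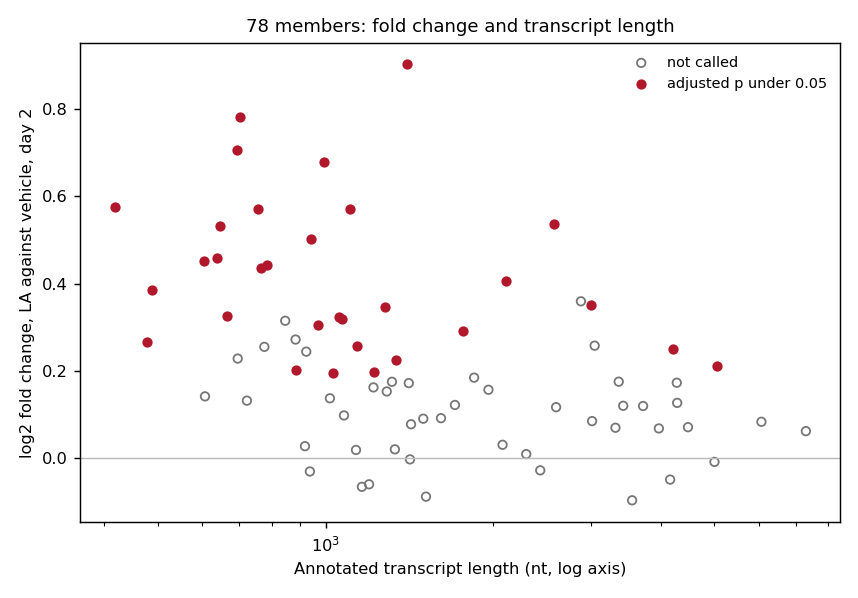
Log2 fold change of LA against vehicle at day 2 for each of the 78 members, plotted against annotated transcript length in nt on a log axis; filled points passed an adjusted p under 0.05. Of the 31 called members, 5 are longer than 1849 nt.

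At this comparison genes of the other translation machineries and of the respiratory chain were also higher. Of 83 cytosolic ribosomal protein genes tested, 62 rose and none fell, with a median log2 fold change of 0.57. With length and GC trends removed, 39 rose, with a median of 0.37. Of 82 nuclear genes for respiratory chain subunits, 55 rose and none fell, with a median of 0.45. With the trends removed, 26 rose, with a median of 0.20. Both medians were above that of the members in the same setting, and that difference between lists was not tested. Among the partners of the mitochondrial ribosome, Slirp, which binds Lrpprc, rose by 1.00, Rbfa rose by 0.60 and the elongation factor gene Tsfm by 0.32. Slirp and Rbfa had low levels and groups that overlapped. Slirp ranged from 3.48 to 9.18 CPM with LA and from 3.22 to 4.21 CPM with vehicle. Rbfa ranged from 4.91 to 6.87 CPM with LA and from 2.72 to 5.39 CPM with vehicle. Of the 5 other mitoribosomal protein genes (Dap3, Ptcd3, Chchd1, Aurkaip1 and Gadd45gip1) 1 rose, Aurkaip1, by 0.23. None of the 20 aminoacyl-tRNA enzyme genes and none of the 9 mitochondrial DNA genes passed the edgeR test, and Esrra was the 1 regulator of 10 that did (0.43). Members with ETS letters in the promoter were called in 10 of 26 cases and those without in 17 of 43, with medians of 0.19 and 0.18.

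**Figure D5:**
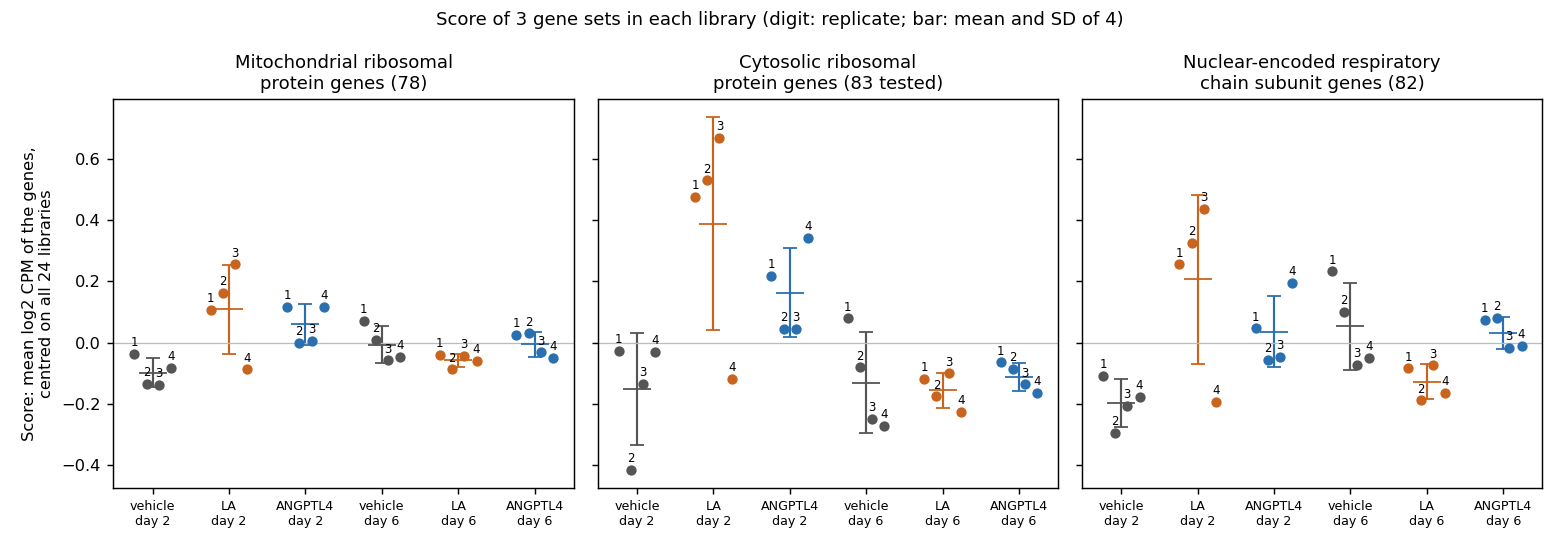
Mean centred log2 CPM of the 78 members, 83 cytosolic ribosomal protein genes and 82 respiratory chain genes in each library (points, digit for replicate), with the mean and SD of 4 libraries. In all 3 panels LA day 2 libraries 1 to 3 are the highest of the day 2 libraries or close to it, and LA day 2 library 4 lies within the vehicle day 2 range.

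ANGPTL4 against vehicle at day 2 asks how the protein alone, without the fatty acid, changed early differentiation. Of the 78 members, 9 rose and none fell, and the background was 9.82% of genes called, 3.86% higher and 5.96% lower. The log2 fold change was above 0 for 74 members with a median of 0.16, and 30 members had an unadjusted p under 0.05. All 9 called members belong to the large subunit, although the difference between subunits was not tested and the medians were 0.16 (large) and 0.14 (small). Mrpl12 read 61.5, 55.1, 53.8 and 65.4 CPM with ANGPTL4, against 49.5 to 50.5 CPM in the vehicle libraries. Its groups did not overlap (log2 fold change 0.23, SE 0.07, adjusted p = 0.027 by edgeR). Mrpl10, the partner of Mrpl12 in the stalk, read 38.5, 37.6, 37.0 and 43.1 CPM, against 32.4 to 35.8 CPM, with a log2 fold change of 0.20. Mrpl20 read 35.7, 30.8, 25.7 and 34.0 CPM, against 22.2 to 26.5 CPM (log2 fold change 0.38, adjusted p = 0.012 by edgeR). ANGPTL4 library 3 lay inside the vehicle range. Mrpl55 (0.44), Mrpl21 (0.26), Mrps18a (0.21), Mrps30 (0.20), Mrpl15 (0.19) and Mrpl18 (0.18) were the others, and 7 of the 9 had groups that did not overlap.

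No member was called in ANGPTL4 against vehicle at day 2 under every alternative. With length and GC trends removed 2 of the 9 were called, and the median log2 fold change was 0.10. Leaving out any 1 of the 8 libraries left 1 to 5 members called: 1 without vehicle replicate 2 or ANGPTL4 replicate 4, 3 without vehicle replicate 4 or ANGPTL4 replicate 1, 4 without vehicle replicate 1, vehicle replicate 3 or ANGPTL4 replicate 3, and 5 without ANGPTL4 replicate 2. Mrpl20 missed the threshold narrowly without ANGPTL4 replicate 1 (log2 fold change 0.29, adjusted p = 0.052 by edgeR). For Mrpl12 the adjusted p of edgeR was 0.055 to 0.14 in the 6 settings that left out vehicle replicate 1, 2, 3 or 4 or ANGPTL4 replicate 1 or 4. Among all members, 56 stood above the vehicle range in ANGPTL4 library 1, 27 in library 2, 33 in library 3 and 46 in library 4. In the same comparison 16 of 83 cytosolic ribosomal genes and 12 of 82 respiratory chain genes rose and none fell, and with the trends removed 9 and 5 rose. The LA and ANGPTL4 comparisons at a day share the vehicle libraries.

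LA and ANGPTL4 were also compared with each other at day 2. None of the 78 members was called by edgeR, limma-voom or DESeq2, 13 had an unadjusted p under 0.05, and the background was 12 genes, 0.0924% of those tested (0.0616% higher and 0.0308% lower). The median log2 fold change was 0.04, and -0.05 with length and GC trends removed. Without LA library 4, 9 members were called, and without ANGPTL4 library 4, 2 were called. Without LA libraries 3 and 4, 5 were called.

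At day 6, LA against vehicle gave no member that rose and 3 that fell, against a background of 17.2% of genes called, 7.83% higher and 9.38% lower. The median log2 fold change of the members was -0.05, beside -0.01 over all genes. Mrps24 read 13.7, 12.8, 14.7 and 11.7 CPM with LA, against 20.6, 16.4, 14.3 and 17.95 CPM with vehicle. The ranges met at 1 library each, and the log2 fold change was -0.39 (SE 0.12, adjusted p = 0.028 by edgeR). Mrpl2, a large-subunit protein with a bacterial counterpart, read 31.2, 27.5, 26.7 and 27.2 CPM, against 32.5, 36.2, 32.6 and 32.6 CPM. Its groups did not overlap (log2 fold change -0.24, SE 0.07, adjusted p = 0.016 by edgeR). Mrpl37 was lower by a log2 fold change of -0.21 with ranges that met. These calls rest on single libraries: the number called was 0 without LA replicate 2 or 4, and 1 without LA replicate 3 or vehicle replicate 1, 2 or 4. Without 1 of these libraries the adjusted p of edgeR for Mrps24 reached 0.17 (vehicle replicate 1 left out) and for Mrpl2 0.095 (vehicle replicate 2 left out). In the same comparison 11 of 82 respiratory chain genes and 1 of 83 cytosolic ribosomal protein genes fell. With length and GC trends removed 2 members were called, 1 of them among the 3, and 16 respiratory chain genes and 0 cytosolic ribosomal genes fell.

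For ANGPTL4 against vehicle at day 6, no member was called by edgeR, limma-voom or DESeq2, and 10 members had an unadjusted p under 0.05. Over all genes 3 were called, 0.0231% (0.0154% higher and 0.0077% lower). The median log2 fold change of the members was 0.00. In LA against ANGPTL4 at day 6, where 13.9% of genes were called (6.6% higher and 7.32% lower), 1 member was called. Mrps22, a small-subunit protein found only in mitochondria, read 29.6, 27.5, 32.6 and 34.6 CPM with LA and 36.4, 37.8, 39.4 and 37.0 CPM with ANGPTL4. The groups did not overlap (log2 fold change -0.28, SE 0.08, adjusted p = 0.015 by edgeR). The adjusted p was 0.052 without LA replicate 1, 0.10 without LA replicate 2 and 0.065 without ANGPTL4 replicate 3, and the last left 0 members called. Without ANGPTL4 replicate 4, 2 were called. Of the other mitoribosomal protein genes, Ptcd3, whose protein belongs to the small subunit, fell in this comparison by 0.25.

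The treated cells were followed from day 2 to day 6 as well. With LA, 2 members rose and 36 fell, against a background of 43.8% of genes called, 23.1% higher and 20.7% lower. The median log2 fold change was -0.21, beside -0.01 over all genes. With length and GC trends removed 4 rose and 25 fell, 22 of the 38 calls were shared, and the median was -0.12. In that setting 37.2% of the members were called, against 43.6% of all genes (20.5% higher and 23.1% lower). Mrpl12 read 51.9, 58.4, 65.3 and 50.01 CPM at day 2 and 44.8, 45.0, 43.2 and 46.8 CPM at day 6. Every day 6 library was below every day 2 library (log2 fold change -0.33, SE 0.07, adjusted p = 1.7e-04 by edgeR). Mrps18a read 26.4, 25.8, 29.9 and 24.7 CPM and then 20.03, 22.03, 19.1 and 19.6 CPM, again without overlap (log2 fold change -0.41, SE 0.07, adjusted p = 1.5e-05 by edgeR). Mrpl23 had a log2 fold change of -0.71, Mrps24 of -0.61 and Mrps36 of -0.61. Of the large subunit 23 of 51 fell, and of the small subunit 12 of 26. Mrpl1 (0.21) and Mrps34 (0.24) rose. The adjusted p of edgeR for Mrpl1 was 0.055 to 0.067 without LA day 2 replicate 1 or 4 or LA day 6 replicate 1. For Mrps34 it was 0.055 to 0.12 without LA day 2 replicate 1, 2 or 4 or LA day 6 replicate 1 or 3. Of the 38 called members, 13 stayed called under every alternative, and 15 had groups that did not overlap. In the same comparison 74 of 83 cytosolic ribosomal genes (median -0.58) and 57 of 82 respiratory chain genes (median -0.39) fell. With the trends removed 57 cytosolic ribosomal genes (median -0.39) and 33 respiratory chain genes (median -0.18) fell. Slirp fell by 1.03 and Lrpprc by 0.43. The Slirp groups overlapped, at 3.48 to 9.18 CPM at day 2 and 2.86 to 4.10 CPM at day 6.

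With ANGPTL4, 3 members rose and 11 fell from day 2 to day 6, against 42.2% of genes called, 22.4% higher and 19.8% lower. This split was 3 and 12 with DESeq2 size factors, and none and 21 with library totals alone. The ANGPTL4 libraries held 13194847 to 20580188 counts at day 2 and 6100684 to 9067864 at day 6, so day and depth went together. With every library thinned to 6100684 counts, 10 members were called, 8 of them among the 14. The part of depth in the result was not tested. Mrpl12 read 61.5, 55.1, 53.8 and 65.4 CPM at day 2 and 41.8, 47.7, 45.4 and 43.6 CPM at day 6. The groups stood apart (log2 fold change -0.40, SE 0.07, adjusted p = 2.7e-05 by edgeR). Mrps12, which sits at the decoding centre of the small subunit, read 11.3, 11.03, 10.1 and 10.6 CPM and then 7.99, 9.67, 7.15 and 7.99 CPM. It fell by 0.39 on the log2 scale, without overlap (SE 0.12, adjusted p = 0.0082 by edgeR). Mrps2 fell by 0.45, Mrps26 by 0.42, Mrpl4 by 0.30 and Mrpl38 by 0.27, all without overlap, and these 6 stayed called under every alternative. Mrpl1 (0.24), Mrps31 (0.21) and Mrpl13 (0.16) rose, and each of these 3 lost its call with library totals alone. The adjusted p of edgeR for Mrps31 was 0.11 to 0.18 without ANGPTL4 day 2 replicate 2 or 4 or day 6 replicate 2, and for Mrpl13 it was 0.12 to 0.15 without ANGPTL4 day 2 replicate 2, 3 or 4 or day 6 replicate 1 or 2. Of the 14 called members 10 had groups that did not overlap. Lrpprc fell by 0.39, Mettl17 by 0.56 and Wars2 by 0.52, while Nars2 rose by 0.54 and Mtif3, an initiation factor gene, by 0.50. The vehicle, LA and ANGPTL4 time courses share no libraries with each other. The LA time course and LA against vehicle at day 2 use the same LA day 2 libraries. The vehicle time course and both day 2 comparisons with vehicle use the same vehicle day 2 libraries. In that group the mean of the members' centred log2 CPM was -0.10, the lowest of the 6 groups. Results that share libraries are not separate findings.

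The difference between the LA effect at day 6 and that at day 2 was tested as an interaction. It uses the same LA and vehicle libraries as the comparisons above and is not a separate finding. Of the 78 members, 24 had a lower effect at day 6 and none a higher one, against 19.7% of genes called, 8.68% higher and 11% lower. The median difference of log2 fold changes was -0.23, beside -0.02 over all genes. For Mrps24 the difference was -1.07 (SE 0.17, adjusted p = 7.5e-05 by edgeR): the LA mean was 19.8 CPM and the vehicle mean 12.7 CPM at day 2, and 13.2 and 17.3 CPM at day 6. Mrpl50 had a difference of -0.61 (SE 0.12, adjusted p = 6.2e-04 by edgeR), Mrpl55 of -0.75 and Mrps36 of -0.84. These 4 and Mrpl15 (-0.33) stayed called under every alternative. Of the large subunit 19 of 51 and of the small subunit 4 of 26 were called, with medians of -0.28 and -0.15. The number called was 15 without LA day 2 replicate 3 and 14 without vehicle day 6 replicate 1. With length and GC trends removed it was 12, of which 11 were lower and 1 higher. Of the 24 calls 7 were among these 12, and the median difference was -0.10. For the ANGPTL4 effect, no member was called by edgeR, limma-voom or DESeq2, 17 had an unadjusted p under 0.05, the background was 0.277% of genes (0.0847% higher and 0.192% lower), and the median difference was -0.17 (-0.07 with the trends removed). Without ANGPTL4 day 2 replicate 1, 2 members were called, and without vehicle day 6 replicate 3, 1 was called.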

How the data were processed

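Per the labels' protocols, total RNA with an integrity number above 7 went into 3′ libraries of the QuantSeq type, which sample the ends of transcripts. The tools Trimmomatic, STAR 2.7.1a, HTSeq 0.9.1, DESeq2, DESeq and build mm39 are named in the submitters' processing notes. Their order and the counting and strand settings are not given in the sources used here. The deposited values were raw counts per gene symbol for 14693 genes in 24 libraries; how genes had been removed was not stated, and the lowest total of a gene was 51 counts. Mitochondrially encoded genes number 0 in the table.

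Genes with low counts were removed with filterByExpr on the groups, which left 12994 genes. Counts were scaled by TMM and fitted in edgeR 4.0.16 (R 4.3.3) as 1 model of 6 group means with robust quasi-likelihood and 18 residual degrees of freedom. Genes varied by 6.51% between libraries of a group (common biological coefficient of variation). A gene was called where its Benjamini-Hochberg adjusted p, taken over the genes tested, was under 0.05. Fold changes are log2. Standard errors were derived from the F statistics. The fitting script was tested on simulated data. Alternatives used limma 3.58.1 (voom), DESeq2 1.42.0, other scalings and filters, a replicate block, a within-group component, thinning to 6100684 counts, length and GC trends (mgcv 1.9.3), the compared groups alone, and leaving out each library. Length, GC content and exon overlaps came from GENCODE vM21 (build GRCm38, another build than that of the counts), in which all 78 members had a match.

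Overlaps with exons of other genes were found for 33 members, 23 of them with a gene in the table. Members and lists were chosen with earlier results of these data known, and so support nothing by their choice. Named were members with special roles, up to 10 called members each way in a comparison, and the 3 highest and 3 lowest in mean CPM. Mrpl50 in LA against vehicle at day 2 and Mrpl15 in the day difference of the LA effect were named because they stayed called under every alternative. The count of samples per group, 4, and counting error at low CPM limit precision.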

Additional observations from a re-analysis of the deposited data

Results flagged for a closer look

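Tests of 1 library against the other 3 of its group numbered 96. They covered the members' share of counts, the mean of their centred log2 CPM, and the members named for special roles. In 4 of these tests a library stood far from the rest of its group. Chance flags about 1 in 20 such groups. Mrpl58, the peptidyl-tRNA hydrolase of the large subunit, was at 18.1 CPM in vehicle day 2 replicate 4 (the others from 14.5 CPM) and at 12 CPM in LA day 6 replicate 1 (the others up to 15.3 CPM). Mrpl45 was at 44.5 CPM in ANGPTL4 day 2 replicate 1 (the others from 40.8 CPM). Mrps2 was at 11.5 CPM in LA day 6 replicate 3 (the others up to 13.6 CPM).

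The 11 members listed here were chosen from those whose LA effect differed between day 6 and day 2 by edgeR's interaction test. That all of them passed it follows from this choice. The differences of log2 fold changes were -1.11 for Mrpl43, -1.07 for Mrps24, -0.90 for Mrpl23, -0.84 for Mrps36, -0.82 for Mrpl14, -0.75 for Mrpl55, -0.63 for Mrpl27, -0.63 for Mrps21, -0.62 for Mrps18c, -0.61 for Mrpl50 and -0.39 for Mrps18a. The adjusted p of edgeR ranged from 7.5e-05 for Mrps24 to 0.046 for Mrpl27.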

How the results depend on the processing

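Of 78 named results (a member in a comparison in which it was called), 76 kept their direction and 21 their call under every alternative. These results are not the 78 members and not all called results. They were picked by size of change or for a special role. Mrpl50 in LA against vehicle at day 2 and Mrpl15 in the day difference of the LA effect are not among them. The exceptions in direction were Mrps21 in LA day 6 against day 2 (0.0087) and Mrps18a in LA against vehicle at day 2 (-0.050), both with length and GC trends removed. Leaving out 1 library at a time gave 7 to 20 called members for vehicle day 6 against day 2 (13 with all libraries), 26 to 44 for LA day 6 against day 2 (38) and 10 to 16 for ANGPTL4 day 6 against day 2 (14). It gave 11 to 40 for LA against vehicle at day 2 (31), 0 to 4 at day 6 (3), and 1 to 5 for ANGPTL4 against vehicle at day 2 (9). It gave 0 to 9 for LA against ANGPTL4 at day 2 (0), 0 to 2 at day 6 (1), 14 to 31 for the day difference of the LA effect (24) and 0 to 2 for that of ANGPTL4 (0). Other settings moved counts by over 1.5 times as follows. For LA against vehicle at day 2 they were 8 with length and GC trends removed, 17 with thinned counts and 9 with the compared groups alone. At day 6 they were 1 with limma-voom, 1 with thinned counts and 5 with the compared groups alone. For ANGPTL4 against vehicle at day 2 they were 5 with DESeq2 size factors, 4 with a filter of 5 CPM in 4 libraries, 4 with the DESeq2 test, 2 with trends removed, 2 with thinned counts and 1 with the compared groups alone. For LA against ANGPTL4 they were 2 at day 2 with the within-group component and, without LA libraries 3 and 4, 5; at day 6 they were 3 with trends removed and 2 with the compared groups alone. The day difference of the LA effect gave 12 with trends removed, and that of ANGPTL4 gave 1 with library totals alone and 1 with the within-group component. Removing trends kept the count of the vehicle time course at 13 but shared 7 of its calls, and it shared 22 of 38 in the LA time course, 13 of 14 in the ANGPTL4 time course and 7 of 24 in the day difference of the LA effect. Thinned counts and the compared groups alone have fewer counts or libraries. The cause of the other changes was not tested. A change of setting can alter the calls of all genes as well, and most of those shares are not given here. These counts are therefore not a result about the members alone. With the replicate number as a block the counts were 13, 36 and 15 for the vehicle, LA and ANGPTL4 time courses, 28 and 2 for LA against vehicle, 6 for ANGPTL4 against vehicle at day 2 and 22 for the LA day difference. Libraries with the same number did not deviate together in every pair (correlations in the vehicle time course 0.02, 0.07, 0.01 and 0.04), so the numbers were not taken as pairs. Depth limits the members with few reads, such as Mrpl43, whose call in LA against vehicle at day 2 was lost with thinned counts.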

Other observations

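Other genes of mitochondrial translation also had an LA effect that differed between the days by edgeR's interaction test. The difference of log2 fold changes was -1.34 for Slirp, -0.53 for Mtg1 (a GTPase of large-subunit assembly), -0.46 for Eral1 (a chaperone of the small ribosomal RNA), -0.43 for Tsfm and -0.30 for Nsun4, and it was 0.31 for Rars2. Among the regulators it was -0.69 for Esrra and 0.25 for Gabpa. In LA against vehicle at day 6, Nsun4 (-0.25) and Lars2 (-0.21) fell. In ANGPTL4 against vehicle at day 2, Ngrn rose by 0.26 and Ppargc1b fell by 0.51.

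By promoter letters, 4 of 8 members with YY1 letters, 3 of 5 with an E-box and 0 of 3 with NRF1 letters were called in LA against vehicle at day 2 by edgeR, beside 23 of 61, 24 of 64 and 27 of 66 of those without them.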
